A study of Mus musculus with 6 samples.

Results

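Fc receptors bind the constant part of antibodies and decide what a cell does with an antibody-coated target. In the mouse, the activating IgG receptors encoded by Fcgr1, Fcgr3 and Fcgr4 signal through a shared adaptor, the gamma chain encoded by Fcer1g, which carries an ITAM, a tyrosine motif that recruits the kinase Syk. Fcgr2b encodes the inhibitory receptor, whose ITIM motif recruits the phosphatase encoded by Inpp5d. Fcgrt encodes FcRn, a relative of MHC class I that pairs with beta-2-microglobulin and returns IgG and albumin from endosomes to the cell surface. In the brain, the IgG receptors and the gamma chain are genes of microglia and border macrophages, and FcRn is known from the vessel wall and the choroid plexus.

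The 6 genes named here were taken by symbol from a table of 30707 mouse genes, and all 6 were found. The values come from RNA of hippocampus, from 3 samples given a control virus and 3 given a knockdown virus for SFRS8. SFRS8 is a splicing regulator and is listed as Sfswap. The kind of virus, the promoter and cell types it reaches, the strain, age and sex of the mice and any pooling are not stated in the labels. The table gives FPKM, fragments per kilobase of exon scaled to library size, and the libraries behind it held 16622948 to 18097344 reads. Controls 1 to 3 had 16.7, 18.5 and 19.2 FPKM of Sfswap and knockdown samples 1 to 3 had 9.79, 11.3 and 9.58, or 0.564 of the control mean (limma adjusted p = 0.0432). Snap25, Camk2a and Slc17a7, listed here as markers of hippocampal neurons, were abundant in every sample. Prox1, which marks dentate granule cells, stood at 11.7 to 18.0 FPKM.

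Of the 6 genes, 4 lie on chromosome 1 and are shown first by sequence because the values below are read against their position and their likeness to one another. On mm10, Fcgr2b (ENSMUSG00000026656, minus strand, 170958617 to 170976547), Fcgr4 (ENSMUSG00000059089, plus strand, 171018920 to 171029761) and Fcgr3 (ENSMUSG00000059498, minus strand, 171051174 to 171064935) share 106 kb. Fcer1g (ENSMUSG00000058715, minus strand, 171229572 to 171234365) lies 165 kb further on. Fcgr1 (ENSMUSG00000015947) is on chromosome 3, minus strand, 96282909 to 96293969, and Fcgrt (ENSMUSG00000003420) on chromosome 7, minus strand, 45092990 to 45103851.

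The windows around the starts of the 3 activating receptors are printed because each holds GAGGAA, the purine-rich core bound by PU.1, a transcription factor of myeloid cells. The sequences are from RefSeq on GRCm38.p6, the assembly behind mm10, 100 bases before to 20 after the start, 5′ to 3′ in the direction of the gene. Capitals mark the match, which reads TTCCTC because it lies on the opposite strand.
Fcgr1, chr3:96293950-96294069, minus strand: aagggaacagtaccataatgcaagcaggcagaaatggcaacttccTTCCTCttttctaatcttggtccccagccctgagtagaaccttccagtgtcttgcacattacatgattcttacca
Fcgr3, chr1:171059384-171059503, minus strand: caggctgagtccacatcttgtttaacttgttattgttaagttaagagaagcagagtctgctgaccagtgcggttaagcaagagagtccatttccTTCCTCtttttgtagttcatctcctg
Fcgr4, chr1:171018826-171018945, plus strand: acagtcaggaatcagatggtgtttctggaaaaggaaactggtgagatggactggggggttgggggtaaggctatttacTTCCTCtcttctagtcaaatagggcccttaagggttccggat

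The match begins 55 bases before the start in Fcgr1, 6 bases before it in Fcgr3 and 22 bases before it in Fcgr4. A second RefSeq start of Fcgr3 places the same match 15 bases upstream. In windows of 300 bases (250 before to 50 after the start), searched on both strands, 3 of the 6 genes held the motif, and so did 28.3% of all 32851 windows. No match was found in the windows of Fcer1g, Fcgr2b and Fcgrt, which says only that these letters are not there. Fcgr1 and Fcgr3, on different chromosomes, share the longer run ttccTTCCTCtttt at this place, which 5 of the 32851 windows hold, among them that of Fcgr1 and both of Fcgr3. The run was picked as the longest common to windows of these same genes, so its count among all windows is not a test of rarity. A match is a description of the sequence and does not show that a factor binds.

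Fcgr2b and Fcgr3 share part of their coding sequence, which bears on how reads could be assigned to either. The longest run common to their longest coding transcripts is 129 bases. In Fcgr2b it covers 170967980 to 170968081 in exon 3 and 170966674 to 170966700 in exon 4, and in Fcgr3 171057691 to 171057792 and 171054167 to 171054193, all on chromosome 1. The run, from GENCODE M21 transcripts, is printed because a read inside it cannot be placed in one gene by its sequence.
Fcgr2b and Fcgr3, shared coding run: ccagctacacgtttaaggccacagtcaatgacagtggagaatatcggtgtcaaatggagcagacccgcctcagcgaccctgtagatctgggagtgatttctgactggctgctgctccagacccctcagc

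Of the windows of 50 bases along the longest coding transcript of Fcgr3, 12.8% also occur in some transcript of Fcgr2b, and of windows of 100 bases 3.53% do. No other pair among the 6 shared a window of 50 bases. How the authors treated reads that match more than 1 gene is not stated in the labels, so the levels of Fcgr2b and Fcgr3 are uncertain by the reads that fall in this stretch. Antisense genes overlap Fcgr2b (Gm38204) and Fcgrt (Gm45669), and whether reads were kept apart by strand is not known. They were listed at 0 in all samples except control sample 2 for Gm38204, at 0.179 FPKM, and knockdown sample 1 for Gm45669, at 0.123 FPKM.

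All 6 Fc receptor genes, against 53.2% of the genes tested, had a positive log2 fold change, and 5 of the 6, against 8.39%, one of at least 0.5. They had higher mean levels in the knockdown hippocampus, at 1.56-fold to 2.93-fold of the control mean, and none passed the test over all genes. In 5 of the 6 every knockdown sample lay above every control sample, a separation seen upward in 18.0% of the 14012 genes tested. The exception was Fcgr2b, the inhibitory receptor. For Fcgr4 the separation rests on library size alone, since control sample 2 and knockdown sample 2 each had 37 reads. With limma on log2(FPKM + 1) and an adjusted p under 0.05, 0 of the 6 were called, against 1.2% of genes called higher (168) and 0.228% called lower (32). At an unadjusted p under 0.05, limma placed 5 of the 6 higher, against 15.7% of the genes tested, and 0 of the 6 lower, against 7.98%. Knockdown sample 1 was above every control in all 6 genes and was the highest sample in 4 of them, and control sample 3 was the lowest in 5. In Fcgr1, control samples 1 and 3 each had 105 reads, so their order comes from library size alone. Hippocampus was measured in bulk, so more cells of a type and more RNA per cell cannot be told apart.

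**Figure D1:**
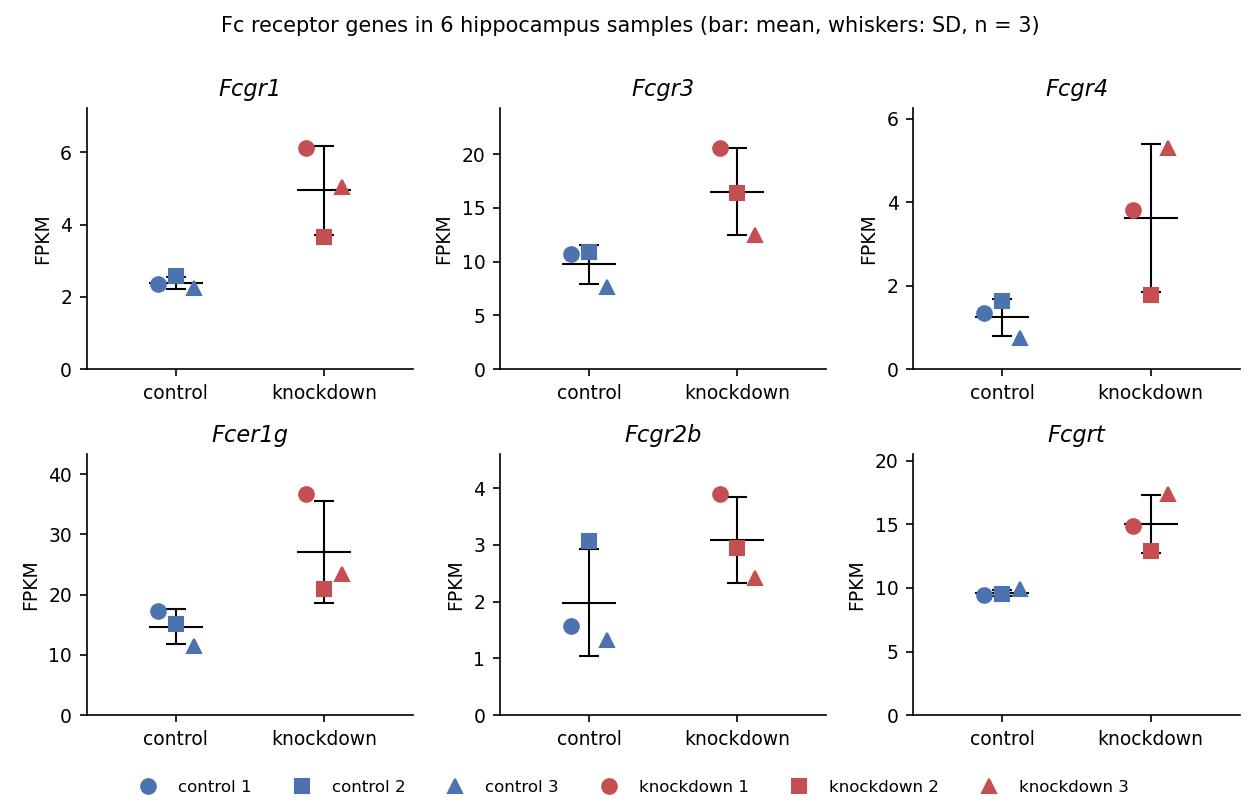
FPKM of each Fc receptor gene (vertical axis, from 0, a separate scale in each panel) in 3 control and 3 knockdown samples, with points for samples, bars for means and whiskers for SD. The groups are apart in every panel except that of Fcgr2b, where control sample 2, at 3.06, lies among the knockdown samples. In the panel of Fcgr4, control sample 2 and knockdown sample 2 had equal read numbers and are apart by library size alone.

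Fcgr1 encodes the high-affinity IgG receptor, which can hold single IgG molecules. Controls 1 to 3, always in that order below, had 2.35, 2.58 and 2.26 FPKM, and knockdown samples 1 to 3 had 6.12, 3.67 and 5.05. The control samples lay close together and the knockdown samples were more spread, all above the controls. The means were 2.40 ± 0.167 and 4.95 ± 1.23 (SD, n = 3 in each group), a ratio of 2.06, on 105 to 281 reads a sample. The log2 fold change was 0.79 (SE 0.16) with a limma adjusted p of 0.0542, which misses the threshold. It passed without knockdown sample 2 (log2 fold change 0.95, limma adjusted p = 0.0395), with a pseudocount of 0.1 (0.0480) and with voom (0.0435). These were 3 of 15 alternatives, and over the 15 the limma adjusted p reached 0.159. For this gene and each of the other 4 with groups apart, a two-sided exact permutation test reached p = 0.1, its lower limit with 3 samples a group. Fcgr4 is among these genes, and its groups were apart through library size alone.

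Fcgr3 encodes the low-affinity activating receptor that binds immune complexes. It stood at 10.8, 10.9 and 7.63 FPKM in the controls and at 20.6, 16.4 and 12.5 after knockdown. The lowest knockdown sample was sample 3 and the highest control was sample 2, and they were closer to each other than the knockdown samples were among themselves. The log2 fold change was 0.69 (SE 0.20, limma adjusted p = 0.1002).

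Fcgr4 encodes the activating receptor of intermediate affinity found on myeloid cells. Its values were 1.34, 1.63 and 0.753 FPKM in the controls and 3.82, 1.77 and 5.30 after knockdown. The group ratio of 2.93 was the largest among the 6 genes, and so was the relative spread of the knockdown samples. The gene rested on 17 to 116 reads a sample, and knockdown sample 2 and control sample 2 each had 37 reads, so their order comes from library size alone and lies within counting error. The log2 fold change was 0.99 (SE 0.31, limma adjusted p = 0.121). In knockdown sample 3 Fcgr4 was at its highest while Fcgr3 was at its lowest among the knockdown samples.

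Fcer1g, the signalling adaptor that the 3 activating receptors need at the cell surface and that also serves the IgE receptor, was the most abundant of the 6. It stood at 17.3, 15.2 and 11.5 FPKM in the controls and at 36.7, 20.99 and 23.4 after knockdown. Knockdown sample 1 was far above the other two, which lay between it and the controls. The means were 14.7 ± 2.90 and 27.0 ± 8.48 (SD, n = 3), with a log2 fold change of 0.82 (SE 0.23, limma adjusted p = 0.0944). Without knockdown sample 1 the log2 fold change was 0.58.

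Fcgr2b, the inhibitory receptor of myeloid and B cells, was the member whose groups overlapped. It stood at 1.56, 3.06 and 1.32 FPKM in the controls and at 3.90, 2.95 and 2.41 after knockdown. Control sample 2 was above knockdown samples 2 and 3, on 321 reads. The log2 fold change was 0.48 (SE 0.24, limma adjusted p = 0.266), with p = 0.3 in a two-sided exact permutation test. Without control sample 2 the log2 fold change was 0.73 and without knockdown sample 1 it was 0.34.

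Fcgrt, the FcRn heavy chain, had the tightest controls of the 6. It stood at 9.44, 9.49 and 9.90 FPKM in the controls and at 14.8, 12.9 and 17.4 after knockdown, on 342 to 637 reads. Every knockdown sample lay above the controls by more than the whole control range. The means were 9.61 ± 0.254 and 15.0 ± 2.26 (SD, n = 3), a ratio of 1.56, and the log2 fold change was 0.59 (SE 0.11). The limma adjusted p of 0.05003 was just above the threshold. It fell below it with a pseudocount of 0.1 (0.0472) or 0.5 (0.0491), with a filter at 5 FPKM (0.0421), with voom (0.0393) and without knockdown sample 2 (0.0457). These were 5 of 16 alternatives, and over the 16 the limma adjusted p reached 0.159.

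FPKM is per length, so levels can be ordered between genes. In the control samples the order of mean FPKM was Fcer1g at 14.7, Fcgr3 at 9.75, Fcgrt at 9.61, Fcgr1 at 2.40, Fcgr2b at 1.98 and Fcgr4 at 1.24. Fcer1g lay above Fcgr3 in all 3 controls with ranges apart, and Fcgrt above Fcgr1 likewise. The ranges of Fcgr3 and Fcgrt overlapped, as did those of Fcgr1 and Fcgr2b and of Fcgr2b and Fcgr4. In the knockdown samples the order was the same except that Fcgr4, at 3.63 FPKM, stood above Fcgr2b, at 3.08, with overlapping ranges. The deposited values divide by the length of all exons, which for Fcgr2b is 5790 bases against 3544 in its longest coding transcript. Per length of that transcript, Fcgr2b came to a control mean of 3.24 and a knockdown mean of 5.04, above Fcgr1. On the same basis Fcgr3 and Fcgrt had control means of 12.56 and 12.61, the reverse of their order per length of all exons, so the order within both sets of neighbours depends on the length used.

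Ratios within a sample do not depend on library size. Fcgr2b, by FPKM, came to 0.145, 0.282 and 0.173 of Fcgr3 in the controls, and to 0.189, 0.180 and 0.192 after knockdown. The knockdown ratios lay within the control range. The log2 difference between the groups was −0.04 (two-sided exact permutation p = 1). Leaving out control sample 2 turned it to 0.24.

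Against their adaptor, Fcgr1 stood at 0.136 to 0.196 of Fcer1g in the controls and at 0.167 to 0.216 in the knockdown samples, and Fcgr3 at 0.624 to 0.715 and at 0.536 to 0.782. Both pairs of ranges overlapped (two-sided exact permutation p = 0.5 and p = 0.6). Fcgr4 stood at 0.0776, 0.107 and 0.0654 of Fcer1g in the controls and at 0.104, 0.0844 and 0.227 after knockdown, where sample 3 was apart from all others (two-sided exact permutation p = 0.3). These 4 ratios were the only ones compared, and after Benjamini-Hochberg adjustment none could pass in a design whose smallest p is 0.1.

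The ligand side was far more variable than the receptors. Igkc, the constant region of the kappa light chain, measured 196, 42.8 and 8.58 FPKM among the controls and 1269, 1401 and 172 after knockdown. Knockdown sample 3 was below control sample 1, so the groups overlapped, and the log2 fold change of 3.96 (SE 1.21) had a limma adjusted p of 0.117. Igkc ranged over 163-fold between samples, Fcgr4 over 7.03-fold and the other Fc receptor genes over 1.84-fold to 3.19-fold.

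Set sample by sample, the receptors followed Igkc only in part. Control sample 3 had the lowest Igkc and also the lowest Fcgr1, Fcgr2b, Fcgr3, Fcgr4 and Fcer1g. For Fcgr1 it had the same 105 reads as control sample 1 and was lower by library size alone. Control sample 1 and knockdown sample 3 had similar Igkc, 196 and 172 FPKM, but knockdown sample 3 had 5.05 against 2.35 FPKM of Fcgr1, 5.30 against 1.34 of Fcgr4 and 17.4 against 9.44 of Fcgrt. The gap was smaller in ratio for the other members, at 23.4 against 17.3 for Fcer1g, 2.41 against 1.56 for Fcgr2b and 12.5 against 10.8 for Fcgr3. Knockdown sample 2 had the most Igkc and was the lowest knockdown sample in Fcgr1, Fcgr4, Fcer1g and Fcgrt. Because the samples form 2 groups, no correlation over the 6 is given.

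Of the 9 immunoglobulin constant genes and J chain tested, all had positive log2 fold changes (median 2.95) and 0 were called. Those of smallest p were Ighm, the IgM heavy chain, at 18.5, 20.8 and 4.72 FPKM in the controls and 167, 51.8 and 65.1 after knockdown (limma adjusted p = 0.0703), Jchain (0.0834) and Igha (0.0851), and in these 3 the groups did not overlap. IgG heavy chains were uneven among the knockdown samples. Ighg3 stood at 105 and 371 FPKM in knockdown samples 1 and 2 and at 0.0457 in knockdown sample 3, and Ighg2c at 249.1, 462 and 13.5. The constant genes resemble one another and can share reads, so single IgG subclasses are uncertain.

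**Figure D2:**
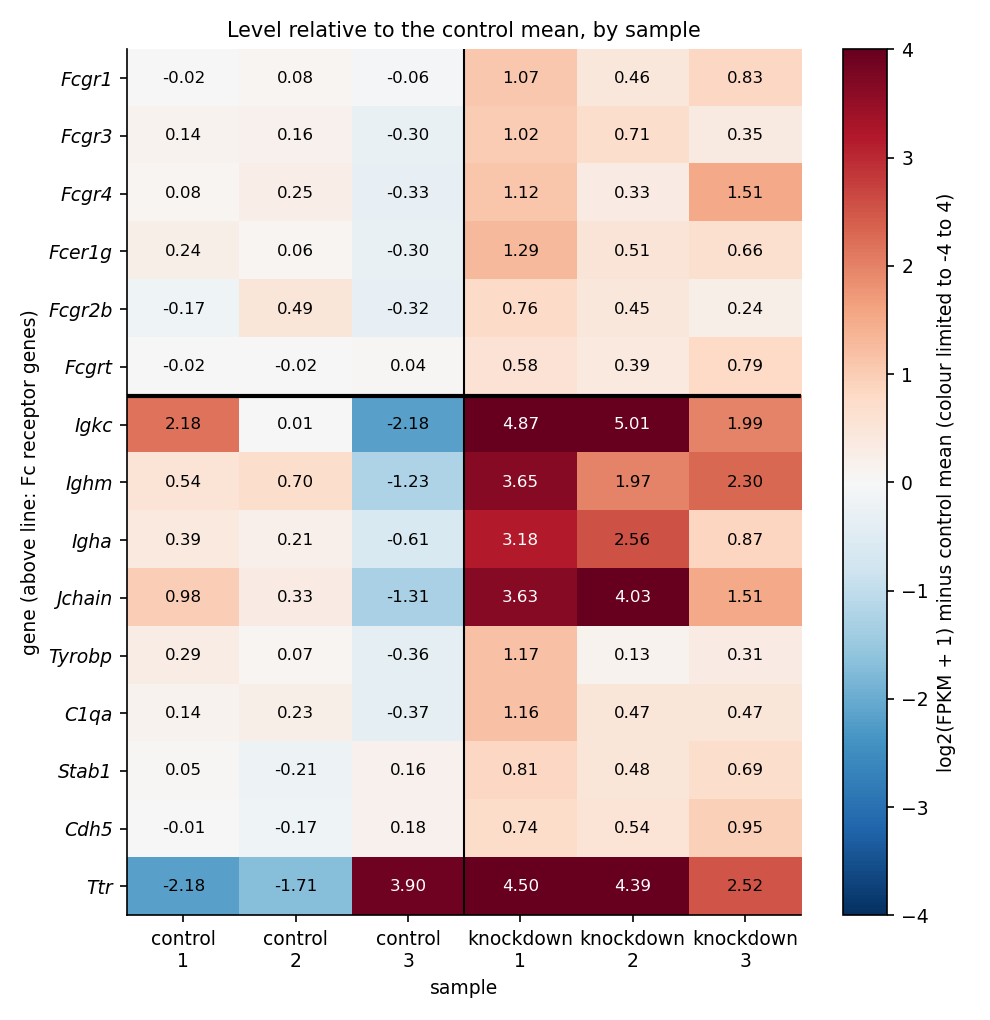
Level of each gene in each of the 6 samples as log2(FPKM + 1) minus the mean of the 3 controls (printed in each cell and shown by colour). Fc receptor genes, above the line, reach 0.24 to 1.51 in knockdown samples, whereas Igkc spans −2.18 to 5.01 and Ttr is high in control sample 3 (3.90) as well as in the knockdown samples.

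Genes that act below the activating receptors mostly had positive fold changes without passing the test. Of 25 listed signalling genes 19 were tested, 17 had positive log2 fold changes and 0 were called in either direction. In 13 the groups did not overlap, with the knockdown higher. Over all genes tested, 53.2% had a positive log2 fold change and 18.0% had groups apart with the knockdown higher. The counts of this list and of those below stand beside these shares. The median log2 fold change was 0.48, against 0.02 over all genes tested. Syk, the kinase that binds the ITAM, stood at 0.7496 to 0.874 FPKM in the controls and at 1.26 to 1.80 in the knockdown samples (limma adjusted p = 0.0919). Prkcd, a protein kinase C that is also abundant in thalamus, had the smallest p at 3.05-fold (limma adjusted p = 0.0568), followed by Blnk, an adaptor of Syk, at 2.56-fold (0.0666) and Vav1, an exchange factor for Rac, at 1.91-fold (0.0672). Fyn and Cbl, which most cell types express, stood at 1.00-fold and 0.927-fold.

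The inhibitory arm looked alike in direction. Of 8 tested phosphatases and ITIM receptors 7 had positive log2 fold changes (median 0.33), 0 were called, and 4 had groups apart. Ptpn6, which encodes the phosphatase SHP-1, stood at 1.81 to 2.67 FPKM in the controls and 4.14 to 7.97 in the knockdown samples without passing (limma adjusted p = 0.0659). Inpp5d, the phosphatase that Fcgr2b recruits, stood at 1.53-fold (limma adjusted p = 0.180), Dok1 at 1.72-fold (0.0855) and Cd33 at 1.47-fold (0.151).

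Among 5 tested ITAM adaptors and their receptors, 4 had positive log2 fold changes (median 0.54) and 0 were called. Tyrobp encodes DAP12, the other ITAM adaptor of microglia, and stood at 36.4, 31.0 and 22.8 FPKM in the controls and 67.5, 32.5 and 37.0 after knockdown. Its groups overlapped (limma adjusted p = 0.306), where those of Fcer1g did not, and the difference between the adaptors was not tested. Trem2 stood at 1.53-fold (limma adjusted p = 0.230), Clec7a at 2.12-fold (0.263), high in knockdown sample 1 alone at 12.1 FPKM, and Cd79a at 2.76-fold (0.304).

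B2m, the light chain of FcRn and of MHC class I, stood at 210, 277 and 154 FPKM in the controls and 480, 331 and 332 after knockdown (limma adjusted p = 0.0974). It was the only one of 5 tested FcRn partners with groups apart. The median of that list was 0.06 and 0 were called, with Exoc3 at 0.913-fold and Myo5b at 1.06-fold. Alb, the other cargo of FcRn, was at or under 0.588 FPKM in every sample. The 3 chains of C1q, which bind the same antibodies as the receptors, all had groups apart, with C1qb at 1.67-fold (limma adjusted p = 0.127), C1qa at 1.65-fold (0.134) and C1qc at 1.66-fold (0.188).

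Of 13 other Fc receptors and relatives, 12 were in the table and only Trim21 and Fcrls reached a mean of 1 FPKM. Trim21, the cytosolic antibody receptor, stood at 0.968 to 2.11 FPKM in the controls and 2.24 to 2.93 in the knockdown samples (limma adjusted p = 0.154). Fcrls, a microglia gene of the Fc receptor-like family, stood at 16.5, 12.3 and 14.4 against 27.3, 13.9 and 25.96, with overlapping groups (limma adjusted p = 0.230). Neither was called. Pigr, the polymeric immunoglobulin receptor, was listed at 0 in all samples but knockdown sample 3, and Ms4a2, the beta chain of the IgE receptor, at 0 in all but control sample 3.

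**Figure D3:**
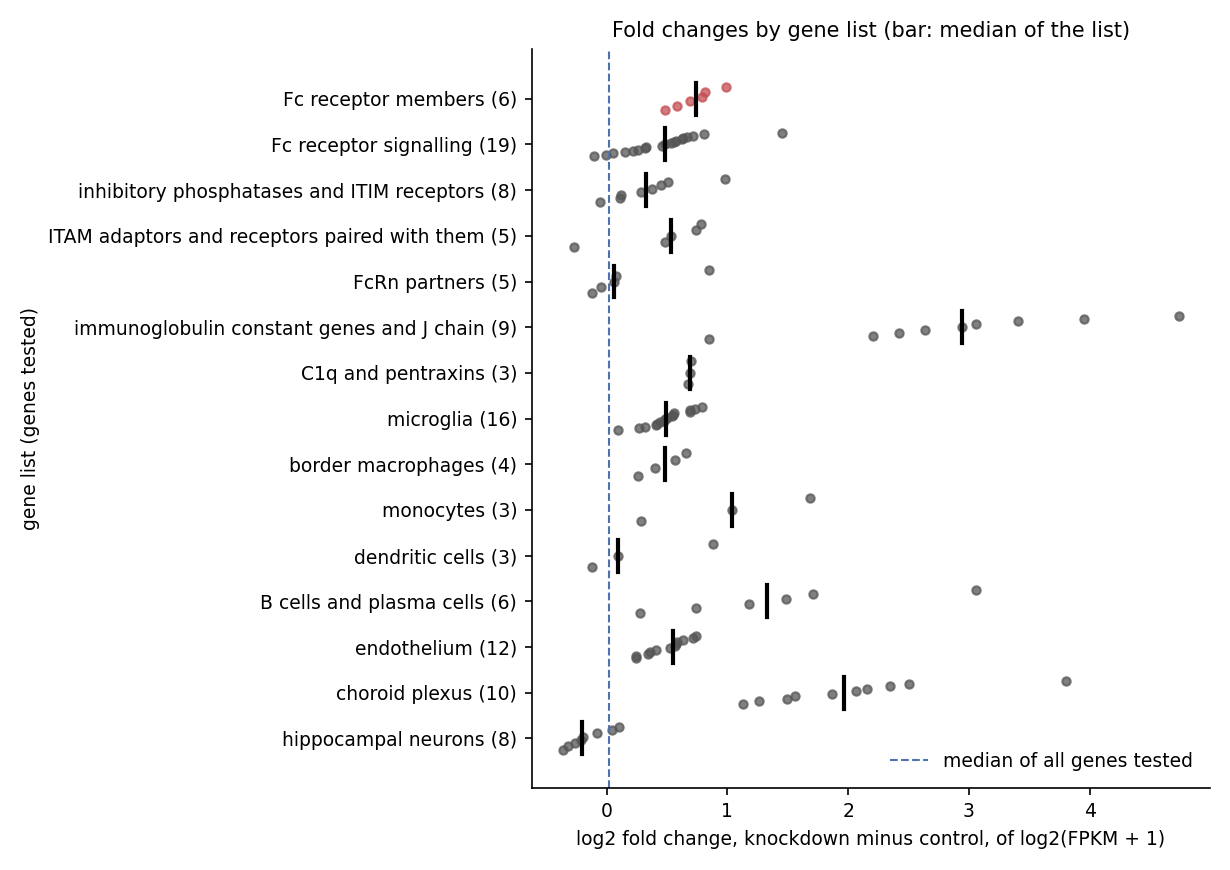
Log2 fold change of each tested gene (horizontal axis, positive where knockdown was higher, from log2(FPKM + 1)) by gene list, with the number of genes tested in brackets and a bar at each list's median. The 6 Fc receptor genes lie between 0.48 and 0.99 with a median of 0.74, and the dashed line marks the median of all genes tested at 0.02.

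Markers of the cells that carry these receptors had mostly positive fold changes, and 1 passed the test. For all 16 microglia markers the log2 fold change was positive, at a median of 0.49. Olfml3 alone was called, at 1.85-fold (limma adjusted p = 0.0472), with P2ry13 (0.0554) and Tmem119 (0.0592) next. In 12 of the 16 the groups were apart, but not in Siglech, at 1.09-fold, Sall1, Tgfbr1 and Fcrls. Their summed level was 139 to 163 FPKM in the controls and 211 to 285 in the knockdown samples, highest in sample 1, and none was at 0. Border macrophage markers were sparse, with 4 of 10 tested, 4 positive, 0 called and sums of 6.52 to 9.82 against 11.6 to 14.2 FPKM. Stab1 (1.77-fold, limma adjusted p = 0.0544), Ms4a7 and Mrc1 had groups apart, and Lyve1 stood at 0.967-fold. The part of these cells in the Fc receptor values was not tested.

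The level of each gene was also taken relative to the mean log2 level of the 16 microglia markers, a step chosen after the values were seen. Relative to these markers and to the control mean, Fcgr1 came to 0.35, 0.06 and 0.45 in knockdown samples 1 to 3, against −0.10 to 0.06 in the controls. Fcer1g came to 0.57, 0.11 and 0.28 against −0.19 to 0.16, and Fcgr4 to 0.41, −0.07 and 1.13 against −0.21 to 0.21. Fcgr2b came to −0.14 to 0.05 against −0.25 to 0.45, Fcgr3 to −0.03 to 0.31 against −0.18 to 0.12 and Fcgrt to −0.14 to 0.41 against −0.10 to 0.16. Only for Fcgr1 were the groups apart, by a gap of less than 0.01. No test was made of these values.

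Fcgrt is read beside vessels and choroid plexus. All 12 endothelial markers had positive log2 fold changes (median 0.55), and in 10 of the 12 the groups were apart with the knockdown higher. Pecam1 was called at 1.74-fold (limma adjusted p = 0.0432), Ocln and Cdh5 were just above the threshold (both 0.05003), and Cldn5, the most abundant, stood at 1.71-fold (0.0866). The sums were 61.7 to 64.3 FPKM in the controls and 87.1 to 101 in the knockdown samples, highest in sample 3, where Fcgrt was also highest. Their part in the Fcgrt values was not tested. Ttr, a choroid plexus gene for the thyroxine carrier, gave 43.2, 60.2 and 2983 FPKM in the controls by number and 4523, 4208 and 1151 after knockdown. The 10 choroid plexus markers summed to 51.5 to 3095 FPKM in the controls and 1207 to 4686 in the knockdown samples, with 0 called and every pair of groups overlapping. All 10 had positive log2 fold changes (median 1.97). Those of smallest p were Kcne2 at 4.42-fold (limma adjusted p = 0.145), Sostdc1 at 3.60-fold (0.151) and Aqp1 at 3.08-fold (0.187). Their part in the Fcgrt values was not tested.

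Markers of other blood cells were mostly low. Neutrophil genes summed to 5.49 to 9.05 FPKM in the controls and 6.95 to 10.3 in the knockdown samples and included Csf3r, which microglia also express, at 3.33 to 3.83 and 5.09 to 7.84 FPKM, whereas S100a8 and S100a9 stood at 0.329-fold and 0.678-fold. No T or NK cell marker reached a mean of 1 FPKM, and the same was true of every mast cell marker except Kit, which neurons also express. Monocyte markers summed to 5.83 to 21.8 FPKM in the controls and 11.4 to 37.3 in the knockdown samples and included Ace, also a gene of choroid plexus, at 1.59 to 19.3 and 7.86 to 28.5 FPKM, while Ccr2 stayed at or under 0.294 FPKM. Of the 3 monocyte markers tested, with a median log2 fold change of 1.04, 0 were called. Vcan, of smallest p, had groups apart at 1.36-fold (limma adjusted p = 0.160), as did Plac8, below the filter, at 1.75-fold. Ly6c2 stood at 1.04, 1.19 and 0.244 FPKM in the controls and 5.76, 3.78 and 0.502 after knockdown, high in knockdown samples 1 and 2 (4.06-fold, limma adjusted p = 0.293). The part of monocytes in the Fc receptor values was not tested. Of the 3 dendritic cell markers tested, 0 were called. Their median of 0.09 is the value of Siglech, which is also listed as a microglia marker. Itgax was high in knockdown sample 1 at 9.69 FPKM, and Flt3 stood at 0.878-fold.

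B cell and plasma cell markers summed to 32.3 to 46.9 FPKM in the controls and 50.9 to 132 in the knockdown samples, sums that hold 26.7 to 47.6 FPKM of Xbp1, which many cell types express. Without Xbp1, left out after the values were seen, the sums were 12.2, 5.57 and 3.60 FPKM in the controls and 65.8, 84.7 and 18.3 after knockdown, all above the controls. Sdc1, which other cells also express, was called (limma adjusted p = 0.0432), and all 6 tested had positive log2 fold changes (median 1.33). Jchain (limma adjusted p = 0.0834) and Derl3 (0.0862) were next. Below the filter, Pou2af1, at 0.0437 to 0.159 FPKM in the controls and 0.653 to 2.12 in the knockdown samples, Pax5, at 0.0262 to 0.0754 and 0.102 to 0.318, and Ms4a1, at 0 to 1 read and 4 to 9 reads, also had groups apart with the knockdown higher. The part of these cells in the Fcgr2b values was not tested. Of the haemoglobin genes, Hbb-bs stood at 1.04-fold and Hba-a1 at 0.801-fold and 0 of 2 tested blood genes called. Of 8 hippocampal neuron markers 6 had negative log2 fold changes (median −0.20) and 0 were called, with Snap25 at 0.779-fold (limma adjusted p = 0.0851), Camk2a at 0.804-fold (0.105) and Rbfox3 at 0.873-fold (0.392).

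Genes that lie between and beside the Fc receptor genes on chromosome 1 did not share one direction. Within 100 kb on either side of the span from Fcgr2b to Fcer1g, 15 other genes were tested, with a median log2 fold change of 0.03, a range of −0.37 to 0.72, and 0 called. Tomm40l, which lies just before Fcer1g, stood at −0.03 (SE 0.10). The groups were apart with the knockdown higher in 4 of the 15, against 18.0% of all genes tested. They were apart with the knockdown lower in 1, Ufc1, at −0.37 (SE 0.08), against 11.8%. Of the 4, Pcp4l1, at 0.72 (SE 0.19), and Sdhc, at 0.15 (SE 0.06), lie between Fcgr3 and Fcer1g. The others were Adamts4, at 0.39 (SE 0.10), beyond Fcer1g, and Gm2962, at 0.29 (SE 0.09), beyond Fcgr2b. Cfap126, between Fcgr3 and Fcer1g, at 0.61 (SE 0.22), had overlapping groups. Beside Fcgrt on chromosome 7, Nosip stood at −0.26 (SE 0.09) and Rcn3 at 0.68 (SE 0.33). On chromosome 3, Hist2h4 and Gm20627, on one side of Fcgr1, stood at 0.21 (SE 0.16) and 0.04 (SE 0.16). Txnip, on its other side and further away, with its start at 96557957, stood at 0.54 (SE 0.13). None of these passed the test over all genes.

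**Figure D4:**
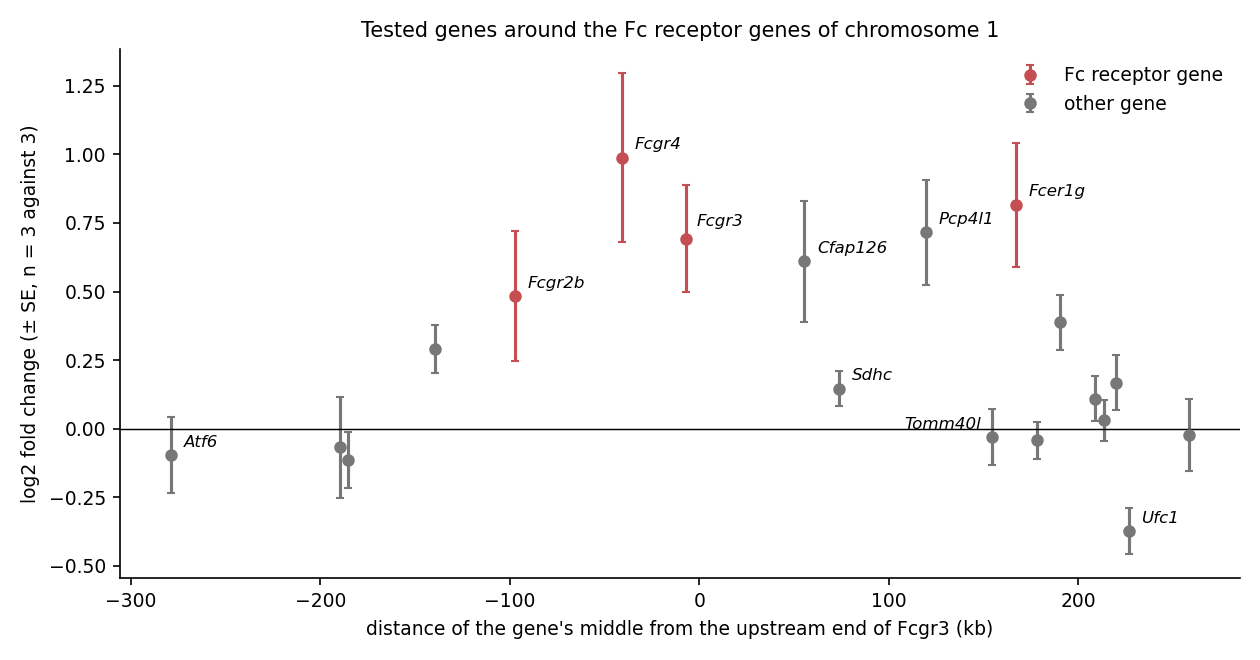
Log2 fold change with its SE (vertical axis, n = 3 against 3) of tested genes on chromosome 1 against the distance of each gene's middle from the upstream end of Fcgr3 in kb. The 4 Fc receptor genes lie between 0.48 and 0.99, and Tomm40l, beside Fcer1g, lies at −0.03.

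The genes most like each member over the 6 samples were found by Pearson's r of log2(FPKM + 1), leaving out provisional symbols. These coefficients are a description over 6 samples that hold the group difference itself. Nearest to Fcgr1 were Pdyn, Acsf2 and Trappc10 (r = 0.997 to 0.998), to Fcgr3 Gab1, Csgalnact1 and Apobec3 (0.993 to 0.996), and to Fcgr4 Cmpk2, Htra3 and Vamp5 (0.991 to 0.997). Nearest to Fcer1g were Lyl1, Trp53i13 and Gpld1 (0.995 to 0.996), to Fcgr2b Klf11, Tgtp2 and Map4k1 (0.986 to 0.992), and to Fcgrt Acsl1, Ckap4 and Pdgfrl (0.996 to 0.999). Pdyn, the prodynorphin gene of neurons, stood at 12.5 against 4.71 FPKM. Among the members themselves r was highest for Fcgr3 with Fcer1g, at 0.933, and for Fcgr1 with Fcer1g, at 0.931, and lowest for Fcgr2b with Fcgrt, at 0.503.

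**Figure D5:**
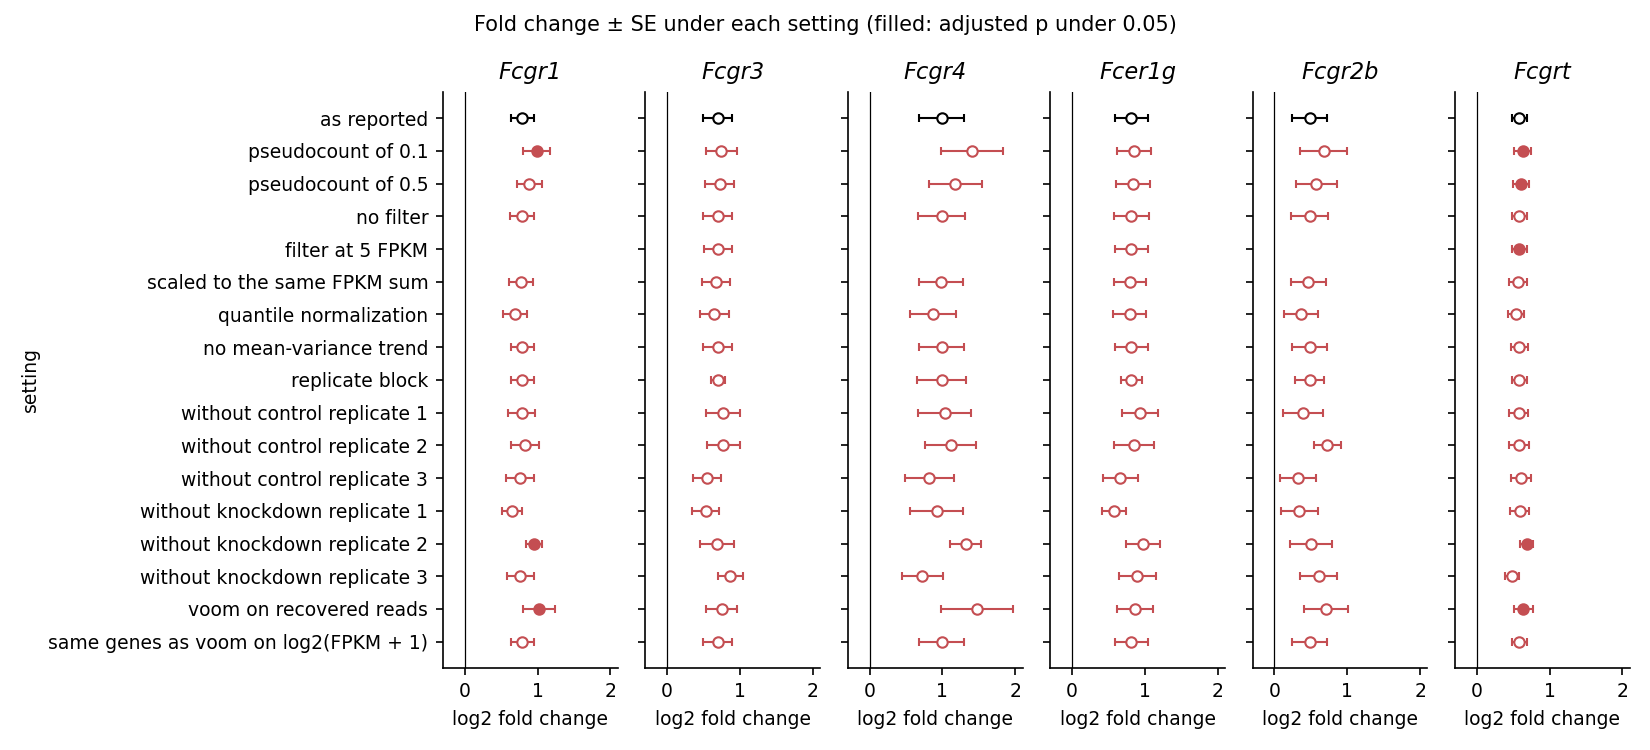
Log2 fold change with its SE (horizontal axis) of each Fc receptor gene under each setting (vertical axis), filled where the adjusted p was under 0.05. All values lie above 0, between 0.32 and 1.48, and filled points occur for Fcgr1 and Fcgrt.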

How the data were processed

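The authors deposited FPKM values per gene for 6 samples of hippocampus, made from poly(A) RNA libraries per the labels' protocols and on mm10 per the submitters' processing notes. Which aligner and counting program they used was not given in the sources used here. Of 30707 gene identifiers, 30641 matched GENCODE M21. FPKM times the exon length gave whole multiples of 1 step per sample, within 0.01 reads for 90.9% to 91.1% of values above 0, which gave the read numbers printed. All 6 members came out whole. A floor of 3 reads on a gene of 1 kb is worth 0.166 to 0.180 FPKM, covering counting error alone.

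The 14012 genes whose mean reached 1 FPKM were fitted on log2(FPKM + 1), a scale that understates the change of low genes, with limma 3.58.1 in R 4.3.3 (group as the only term, mean-variance trend, two-sided, Benjamini-Hochberg over all genes). All 6 members passed this filter. Fold values are ratios of group means in FPKM. Exact permutation tests used scipy 1.17.1. The labels do not say whether samples are separate animals, so the p-values speak of the spread among these samples only, and part of it may be technical. The members, the gene lists and the rule for named genes (members, the 3 of smallest p in each list, the most abundant ligands and markers, and the 3 nearest by r) were chosen with earlier results of these data known, and any other gene named was picked with its values in view. Where Itgam had 2 rows, the higher was used. Protein sequences were not used here.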

Additional observations from a re-analysis of the deposited data

How the results depend on the processing

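All 6 members kept a positive log2 fold change under every alternative that could be run, and a filter at 5 FPKM removed Fcgr1, Fcgr2b and Fcgr4. Fcgr1 passed the threshold with a pseudocount of 0.1 (log2 fold change 0.99) and with voom on recovered reads (1.02). Fcgrt passed with pseudocounts of 0.1 (0.63) and 0.5 (0.61), a filter at 5 FPKM (0.59) and voom (0.64). With the fit without knockdown sample 2, this made 3 of 15 alternatives for Fcgr1 and 5 of 16 for Fcgrt. The limma adjusted p with no filter was 0.143 for Fcgr1 and 0.130 for Fcgrt, and with quantile normalization 0.0828 and 0.0740. Leaving out 1 sample at a time gave 0.65 to 0.95 for Fcgr1, 0.32 to 0.73 for Fcgr2b, 0.53 to 0.87 for Fcgr3, 0.73 to 1.32 for Fcgr4, 0.58 to 0.97 for Fcer1g and 0.48 to 0.69 for Fcgrt. The lowest adjusted p of the other 4 over their alternatives was 0.0531 for Fcgr4, 0.0776 for Fcgr3, 0.0799 for Fcer1g and 0.165 for Fcgr2b. The ratio of Fcgr2b to Fcgr3 reversed without control sample 2 (log2 difference 0.24, and −0.24 to 0.24 over all samples left out), and that of Fcgr1 to Fcer1g with a pseudocount of 1 (−0.029).

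The counts of all genes called, 168 higher and 32 lower, moved to 290 and 64 with a pseudocount of 0.1, 274 and 64 with 0.5, 170 and 65 with a filter at 5 FPKM, 1 and 2 after scaling to the same FPKM sum, 498 and 96 with voom, and 106 and 20 in the same genes without voom, an alternative chosen after seeing the data. They were 0 and 0 with no filter, with quantile normalization and without the variance trend, and 0 to 160 and 0 to 30 with 1 sample left out. The replicate block also gave 0 and 0. Same-numbered samples deviated from their group means together at r = 0.05, 0.04 and −0.01. With 3 samples a group, these r cannot decide whether the numbers pair the samples, and the labels do not say. The block moved no member past the threshold (limma adjusted p = 0.0934 for Fcgrt and 0.103 for Fcgr1). Depth limits Fcgr4 most, at 17 reads in control sample 3.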
